A study of Bos taurus with 18 samples.

Results

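The PGC-1 coactivators and the transcription factors they work with were followed as 10 genes, chosen by name, among the 24596 genes of a bovine RNA sequencing table. The 10 are the coactivators PPARGC1A, PPARGC1B and PPRC1, the nuclear receptors ESRRA, ESRRG and PPARA, the DNA-binding factors NRF1 and GABPA, the mitochondrial DNA-packaging factor TFAM and the deacetylase SIRT1. Each had 1 row in the table, and all 10 passed the filter on low counts in the Simmental-Like libraries. The table covers 18 libraries from 2 cattle lines labelled as fibroblasts, with 3 libraries for each of 3 stages. In the Holstein-Like line the primary stage is labelled PBF-15, the senescent stage Sn-BF-15 and the immortalized stage, which arose spontaneously in long culture, HUN-BF-15. In the Simmental-Like line these are PBF-13, Sn-BF-13 and HUN-BF-13. The sample labels name no treatment and no engineered allele for any group, and no age is stated for the animals. The culture names in the columns change with the stage and overlap in part: Simmental-Like primary and senescent columns both begin with BDF-20 while the immortalized ones are named BF-13, and Holstein-Like senescent and immortalized columns both begin with BF-15 while the primary ones are named BEF. All 3 Simmental-Like senescent columns, on which every senescent result below rests, also carry the words MultiXray and Ctrl, which the labels do not explain. No source used here states that the stages come from the same animal, so the stage and the culture it came from cannot be told apart. Replicates are labelled biological, but separate cultures are not stated, so p-values reflect only how far these libraries differ among themselves, and that spread may be technical.

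PGC-1 coactivators do not bind DNA themselves. They dock on transcription factors and bring in the machinery that opens chromatin and starts transcription, and the genes switched on in this way run mitochondrial respiration and the burning of fatty acids. The estrogen-related receptors and PPARs recruit them to genes of fat oxidation, whereas NRF1 and GABP (also called NRF2, with GABPA as its DNA-binding subunit) act on respiratory chain genes and on TFAM, which carries the programme to the mitochondrial genome. SIRT1 removes acetyl groups from PGC-1alpha, the product of PPARGC1A. The family is best known from muscle, heart, brown fat, liver and kidney, tissues with a high demand for oxidation, and fibroblasts are not a classical site of high PPARGC1A expression.

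Total counts were 1424479 to 1466911 per Holstein-Like primary library, 10984796 to 14085489 per Holstein-Like senescent or immortalized library and 18215984 to 23197201 per Simmental-Like library. Levels are CPM, counts per 1000000 counts of the library. Of the Holstein-Like libraries, 8 of 9 went against the label fibroblast: 9 fibroblast culture genes took 0.0287% to 0.137% of their counts, against 3.80% to 6.24% in every Simmental-Like library and 6.21% in Holstein-Like immortalized library 3. Skeletal muscle genes took 16.8% to 16.9% of the counts of the libraries labelled Holstein-Like primary, heart genes 3.51% of senescent library 1, liver genes 13.4% and 12.8% of senescent libraries 2 and 3 and 13.0% of immortalized library 1, and kidney genes 0.831% of immortalized library 2. The Holstein-Like libraries were therefore read singly and entered no test. Among the Simmental-Like libraries, primary library 1 stood apart: mitochondrially encoded genes took 8.66% of its counts, against 1.86% to 2.72% in the other 8. MKI67, a marker of dividing cells, stood at 94.8, 363 and 234 CPM in primary, 431, 423 and 387 CPM in senescent and 489, 408 and 371 CPM in immortalized libraries of that line. By total counts the libraries labelled senescent thus all held more of it than any primary library, which goes against that label. That order depends on the scaling. TMM scaling sets the libraries to a common level over all genes, with factors of 0.725 to 0.915 in primary and 1.16 in senescent libraries. After it, primary library 2 lies above the senescent libraries, and primary libraries 1 and 3 stay below them. By total counts the senescent libraries lie within the MKI67 range of the immortalized ones. After TMM scaling the senescent and immortalized libraries still overlap. The part of MKI67 in the results below was not tested.

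The 2 closest relatives in the family, PPARGC1A and PPARGC1B, were both highest in the Simmental-Like libraries labelled senescent. There MKI67 was also above every primary library by total counts, but not after TMM scaling. PPARGC1A, the founding coactivator, stood at 3.75, 3.02 and 3.15 CPM in the primary libraries, at 22.6, 24.8 and 21.1 CPM in the senescent ones and at 2.47, 1.94 and 2.28 CPM in the immortalized ones. The 3 stages did not overlap, and the lowest senescent library lay far above the highest library of either other stage. The stage means were 3.31 ± 0.392 CPM, 22.8 ± 1.87 CPM and 2.23 ± 0.266 CPM in the same order (SD, n = 3 each). After TMM scaling, which sets the libraries to a common level over all genes, PPARGC1A in the senescent libraries was 4.91-fold above the primary ones (log2 change 2.30 ± 0.19 SE, adjusted p = 3.1e-05). It was 9.13-fold lower in immortalized than in senescent libraries (log2 change -3.19 ± 0.20, adjusted p = 1.6e-05) and 1.86-fold lower in immortalized than in primary libraries (log2 change -0.89 ± 0.20, adjusted p = 0.0064). These adjusted p-values, like all others below, come from edgeR's quasi-likelihood test over all 13099 genes tested. The direction and the call of each of the 3 held in all 17 alternative settings. In bulk RNA, fewer cells of a type and less RNA per cell cannot be told apart.

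PPARGC1B, the coactivator closest to PPARGC1A in sequence and in targets, kept part of its rise. Its levels were 0.988, 2.37 and 1.85 CPM in primary libraries, 18.6, 19.2 and 18.8 CPM in senescent ones and 8.18, 7.83 and 6.98 CPM in immortalized ones. The stages did not overlap, and primary libraries were the lowest. PPARGC1B in senescent libraries was 7.93-fold above the primary ones (log2 change 2.99 ± 0.21, adjusted p = 1.2e-05), 2.20-fold lower in immortalized than in senescent ones (-1.14 ± 0.19, adjusted p = 0.0022) and 3.60-fold higher in immortalized than in primary ones (1.85 ± 0.21, adjusted p = 0.00014). As for PPARGC1A, all 17 alternatives kept these calls and directions. The immortalized stage thus held PPARGC1A below and PPARGC1B above the primary stage. The count ratio of PPARGC1A to PPARGC1B was 3.80, 1.27 and 1.71 in primary libraries, 1.22, 1.29 and 1.12 in senescent ones and 0.302, 0.248 and 0.326 in immortalized ones. Gene length cancels when this ratio is compared between libraries, and it was lowest in the 3 immortalized libraries, while primary library 1 stood above the other 8.

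PPRC1, the third and more distant coactivator, which is known as a growth-responsive member of the family, did not pass the test in any of the 3 comparisons. It stood at 40.2, 61.3 and 51.5 CPM in primary, 66.3, 64.5 and 69.8 CPM in senescent and 59.6, 60.0 and 58.9 CPM in immortalized libraries. The TMM log2 differences were -0.07 ± 0.10 for senescent against primary, -0.01 ± 0.10 for immortalized against senescent and -0.07 ± 0.10 for immortalized against primary libraries, with adjusted p from 0.564 to 0.964. By total counts the senescent and primary libraries did not overlap, and under total-count scaling the first of these turned to 0.39 (adjusted p = 0.0467). That scaling moved the median log2 change of all genes to 0.47 in the same comparison, so PPRC1 lay close to the middle of all genes either way. The median moved to -0.16 for immortalized against senescent and to 0.30 for immortalized against primary libraries.

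**Figure D1:**
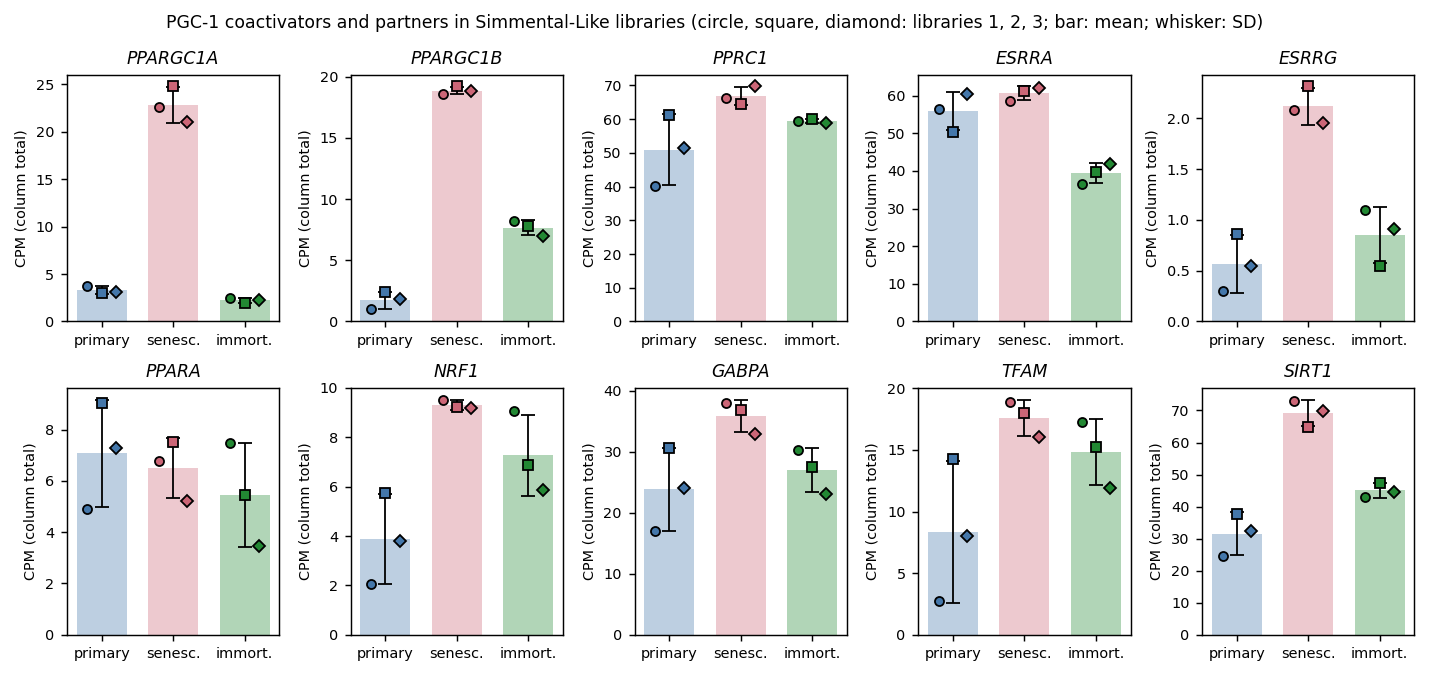
CPM by column total (vertical axes, each starting at 0) of the 10 genes in the 9 Simmental-Like libraries, by stage from primary through senescent to immortalized. Points are single libraries, bars are means and whiskers SDs (n = 3). PPARGC1A reached 21.1 to 24.8 CPM in senescent libraries and stayed at 3.75 CPM or below in the other 6, whereas TFAM spanned 2.72 to 14.2 CPM within the primary stage alone.

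Among the nuclear receptor partners, ESRRG moved with the coactivators, at a very low level. ESRRG, an estrogen-related receptor of oxidative tissues, had 6, 20 and 10 counts in primary, 43, 44 and 38 counts in senescent and 20, 11 and 18 counts in immortalized libraries, which is at most 2.32 CPM. The senescent libraries were above all others, and the other stages overlapped. Senescent libraries were 2.68-fold above primary ones (log2 change 1.42 ± 0.32, adjusted p = 0.0061) and 2.22-fold lower in immortalized than in senescent ones (-1.15 ± 0.31, adjusted p = 0.0211). The call between immortalized and senescent libraries was lost without senescent library 1, 2 or 3 and without immortalized library 2 or 3, with -0.90 as the smallest change, and also with senescent libraries 1 and 2 summed. Immortalized and primary libraries differed by 0.27 ± 0.35 (adjusted p = 0.549).

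ESRRA, the most widely expressed estrogen-related receptor and itself a target of PGC-1alpha, was lowest at the immortalized stage. Its levels were 56.5, 50.5 and 60.5 CPM in primary, 58.7, 61.3 and 62.1 CPM in senescent and 36.6, 39.8 and 41.96 CPM in immortalized libraries. The immortalized libraries lay below all 6 others, which overlapped among themselves. ESRRA fell 1.77-fold in immortalized against primary libraries (log2 change -0.82 ± 0.14, adjusted p = 0.0012), and all 17 alternatives kept that call. Between immortalized and senescent libraries it was lower by a log2 change of -0.46 ± 0.13 (adjusted p = 0.0298), which was lost in 6 of the 9 fits without 1 library, those without any senescent or any immortalized library. The lower TMM-scaled level in senescent than in primary libraries (-0.36 ± 0.13, adjusted p = 0.0447) passed in 4 of 17 alternatives and was lost without any library except primary library 2, and total-count scaling turned it to 0.12.

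PPARA, a receptor for fatty acids that drives their oxidation in liver, did not pass in any comparison. It stood at 4.89, 9.05 and 7.29 CPM in primary, 6.77, 7.53 and 5.203 CPM in senescent and 7.47, 5.43 and 3.44 CPM in immortalized libraries, so all 3 stages overlapped. The largest of its 3 log2 differences was -0.67 ± 0.29 in immortalized against primary libraries (adjusted p = 0.082). Without primary library 1 this difference passed (-0.82, adjusted p = 0.0266), as did that between senescent and primary libraries (-0.72, adjusted p = 0.0406). Without immortalized library 1 the difference between immortalized and primary libraries passed too (-0.96, adjusted p = 0.0303).

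Of the DNA-binding factors, NRF1 rose at the senescent stage. NRF1, which binds promoters of respiratory genes and should not be confused with the stress factor of similar name, had 2.07, 5.73 and 3.81 CPM in primary, 9.53, 9.21 and 9.17 CPM in senescent and 9.06, 6.88 and 5.87 CPM in immortalized libraries. By total counts the primary libraries were the lowest and did not overlap the others, but the counting intervals of the nearest pair, 5.73 and 5.87 CPM, overlapped. Senescent libraries were 1.77-fold above primary ones (log2 change 0.82 ± 0.27, adjusted p = 0.0303). That call held in 10 of 17 alternatives and was lost without primary library 3 or without senescent library 1, 2 or 3, with 0.79 to 0.84 as the change. In immortalized against primary libraries the change was 0.63 ± 0.27 (adjusted p = 0.0871), and without primary library 2 it was 0.95 (adjusted p = 0.0102).

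GABPA, the DNA-binding subunit of GABP, did not pass in any comparison. It stood at 16.9, 30.6 and 24.0 CPM in primary, 38.0, 36.8 and 33.0 CPM in senescent and 30.3, 27.6 and 23.1 CPM in immortalized libraries. The senescent libraries were the highest by total counts, but after TMM scaling the difference between senescent and primary libraries was 0.14 ± 0.16 (adjusted p = 0.463). Under total-count scaling this difference passed (0.59, adjusted p = 0.0376), as did that between immortalized and senescent libraries when only those 6 libraries were fitted (-0.27, adjusted p = 0.0402). In RefSeq's annotation of the ARS-UCD2.0 assembly GABPA overlaps the ATP synthase gene ATP5PF, and ESRRA overlaps TRMT112. The strand setting of the counting is not given in the sources used here, so reads of such neighbours could be shared.

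TFAM, which packs mitochondrial DNA and starts its transcription, spread widely within the primary stage. Its levels were 2.72, 14.2 and 8.05 CPM in primary, 18.9, 17.998 and 16.0 CPM in senescent and 17.3, 15.3 and 11.9 CPM in immortalized libraries. Primary library 1, the one with a mitochondrially encoded share of 8.66%, was by total counts the lowest of the 9 for TFAM, NRF1, GABPA, PPARGC1B, PPRC1, ESRRG and SIRT1. After TMM scaling immortalized library 3 lies below it for GABPA. The part of that share in these levels was not tested. TFAM was higher by 0.67 ± 0.41 in senescent than in primary libraries (adjusted p = 0.189) and by 0.58 ± 0.41 in immortalized than in primary ones (adjusted p = 0.266), and it passed in neither. Without primary library 2, the highest of its stage, both passed, at 1.22 (adjusted p = 0.0129) and 1.13 (adjusted p = 0.0198).

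SIRT1, the deacetylase that acts on PGC-1alpha, rose at the senescent stage. It stood at 24.5, 37.7 and 32.5 CPM in primary, 73.0, 65.0 and 70.0 CPM in senescent and 43.0, 47.5 and 44.6 CPM in immortalized libraries. By total counts the 3 stages did not overlap. Senescent libraries were 1.60-fold above primary ones (log2 change 0.68 ± 0.11, adjusted p = 0.00098) and 1.38-fold lower in immortalized than in senescent ones (-0.46 ± 0.11, adjusted p = 0.0112), and the second call was lost without senescent library 1 (-0.42, adjusted p = 0.0570). In immortalized against primary libraries it changed by 0.22 ± 0.11 (adjusted p = 0.122), which passed without primary library 2 (0.29, adjusted p = 0.0374) and under total-count scaling (0.51, adjusted p = 0.0231).

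Counted over the 10 genes, 6 passed in senescent against primary libraries, 5 higher and 1 lower, where 58% of all genes passed (28.3% higher and 29.7% lower). In immortalized against senescent libraries 5 passed, all of them lower, where 32.4% of all genes passed and 16.1% were lower. In immortalized against primary libraries 3 passed, PPARGC1B higher and PPARGC1A and ESRRA lower, where 50.4% of all genes passed (24.9% higher and 25.5% lower). These counts move with single libraries: without senescent library 1 the count for immortalized against senescent was 2, and without primary library 2 that for immortalized against primary was 6. The number of all genes passing moved too. Over the fits without 1 library it ran from 2888 to 7793 in immortalized against senescent, and without primary library 2 it was 8282 in immortalized against primary. With the replicate number as a block, 3 passed in immortalized against senescent libraries, where 3466 of 13099 genes passed, so no share of the 10 is read as apart from the background. The median log2 change of the 10 was 0.67, -0.36 and 0.07 in the same order, beside medians within 0.02 of 0 for all genes. CPM ranges of the groups did not overlap for 8, 8 and 5 of the 10, where this held for 69.2%, 71.5% and 58.4% of all genes. The comparisons share libraries, so a rise and a later fall both rest on the same 3 senescent libraries. Senescent libraries 1 and 2 lay close to each other (chi-square of their counts 1.34 per gene, against 3.36 and 3.80 for the pairs with library 3). With both summed into 1, 4 genes passed in senescent against primary and 3 in immortalized against senescent libraries. These counts too are not read as apart from the background.

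**Figure D2:**
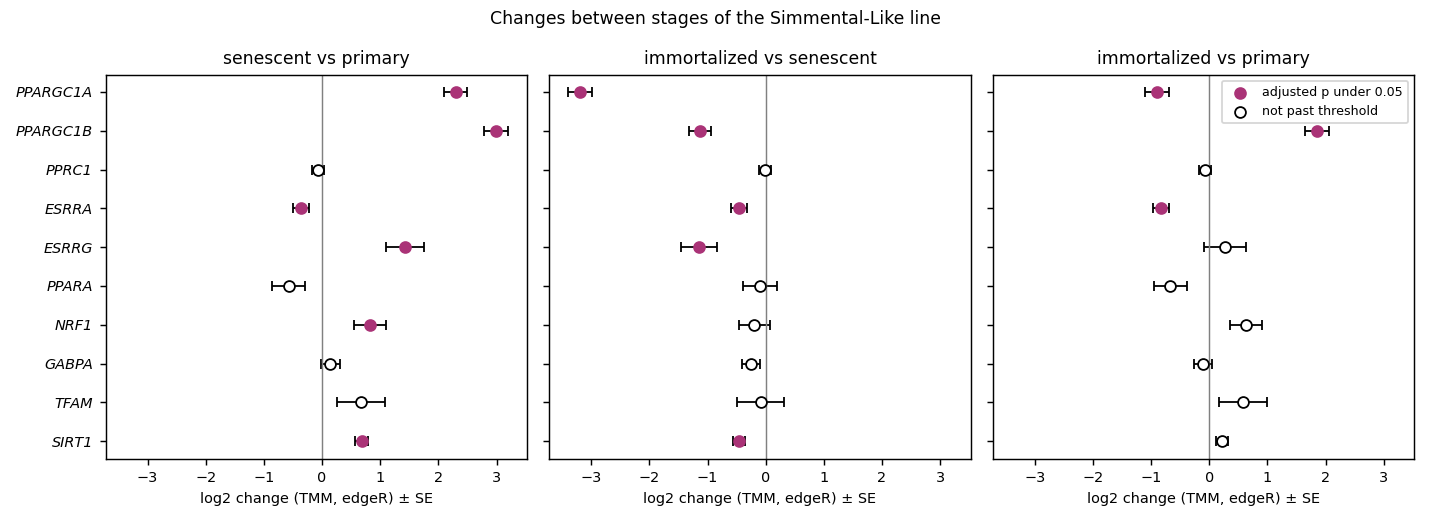
Log2 changes after TMM scaling (horizontal axis) with SE for the 10 genes in the 3 comparisons of the Simmental-Like line. Filled points passed the adjusted p threshold of 0.05, open points did not. PPARGC1A lies at 2.30 in senescent against primary and at -3.19 in immortalized against senescent libraries, and PPRC1 lies within 0.08 of 0 in all 3 panels.

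The 5 named genes outside the family whose pattern over the 9 Simmental-Like libraries was most like that of PPARGC1A were JAG1, CXCL8, CDA, ZCWPW1 and SPOCD1, with Pearson r of 0.996, 0.996, 0.994, 0.9905 and 0.9904 on log2 CPM. JAG1, a Notch ligand, averaged 53.2 CPM in primary, 257 CPM in senescent and 45.1 CPM in immortalized libraries. CXCL8, the chemokine interleukin 8, averaged 1.78, 51.1 and 0.952 CPM in the same order. The 9 points fall into 3 stages, and 269 of 12158 genes compared had an r above 0.9. Within the family, PPARGC1A had an r of 0.76 with ESRRG, 0.75 with SIRT1 and 0.56 with PPARGC1B. The closest pair in the family was NRF1 and TFAM with an r of 0.95, followed by PPARGC1B and SIRT1 with 0.92.

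Some markers of other cell types moved with the senescent stage and were low throughout. Of 7 adipocyte markers 5 are in the table, and together they took 0.00153% to 0.00251% of the counts in primary, 0.00393% to 0.00410% in senescent and 0.000248% to 0.000334% in immortalized libraries. Most of that in primary and senescent libraries is FABP4, at 13.7 to 22.1 CPM in primary, 30.7 to 31.9 CPM in senescent and 0.101 to 0.199 CPM in immortalized libraries. ADIPOQ and UCP1, the defining markers of fat and of brown fat, were both at 0 in every primary library and at 0.421 CPM or below and 0.105 CPM or below in the senescent ones. All 7 skeletal muscle markers together took 0.000459% to 0.000551% in senescent libraries, against 0.0000979% to 0.000173% in primary ones, and MYH2 was at 0 in all 9. Most of that rise was ATP2A1, at 0.381 to 0.741 CPM in primary and 3.45 to 4.16 CPM in senescent libraries, while TNNT3 went to 0 in the senescent ones. The 5 endothelial markers took 0.000880% to 0.00108% in senescent and 0.000212% to 0.000315% in primary libraries. By total counts the summed shares of the heart, liver, epithelial, and melanocyte and Schwann markers were also higher in senescent than in primary libraries. Most of the heart rise was TNNI3, at 0.0431 to 0.148 CPM in primary and 1.53 to 2.47 CPM in senescent libraries. Most of the liver rise was APOA1, at 0.388 to 0.593 CPM and 2.42 to 2.73 CPM in the same order. TNNT2 of heart and TTR of liver overlapped. MITF made up most of the melanocyte and Schwann share and overlapped too. After TMM scaling primary library 2 lies within the senescent range of that share. The summed share of the immune markers was lower, at 0.000551% to 0.000789% against 0.00135% to 0.00156%. Most of it was CD14, at 13.4 to 15.5 CPM in primary and 5.05 to 6.95 CPM in senescent libraries. CD74 went the other way, from 0.0494 CPM or below in primary to 0.309 to 0.532 CPM in senescent libraries. More genes were detected at all in senescent libraries, 16024 to 16132 against 14427 to 14737 in primary ones. The part of these markers in the changes of the 10 genes was not tested.

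The regulators of PGC-1 activity were more often higher than lower in senescent against primary libraries. The list has 30 genes that modify, hold back or assist PGC-1, of which 28 are in the table and all 28 were tested. In senescent against primary libraries 14 rose and 3 fell (median log2 change 0.56, against 0.01 for all genes). That is 60.7% of the list, near the 58% called among all genes. EP300, an acetyltransferase that PGC-1alpha recruits, rose to 218, 220 and 208 CPM in senescent libraries, against 24.2, 73.8 and 49.4 CPM in primary ones (log2 change 1.71 ± 0.27, adjusted p = 0.0011). NRIP1, a corepressor that opposes PGC-1 on oxidative genes, rose to 34.1, 33.1 and 28.0 CPM, against 1.24, 11.9 and 5.11 CPM (1.98 ± 0.54, adjusted p = 0.0143). Primary library 1 was the lowest for both, as for most of the 10 genes, and without it 16 of the 28 rose and 4 fell.

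CAMK4, a calcium-dependent kinase that drives PPARGC1A transcription through CREB, rose step by step, with 0.247, 0.259 and 0.598 CPM in primary, 2.42, 2.05 and 2.37 CPM in senescent and 9.28, 8.03 and 9.11 CPM in immortalized libraries. Both steps passed (2.19 ± 0.29, adjusted p = 0.00036, and 2.11 ± 0.22, adjusted p = 0.00019). PRKAA2, a catalytic subunit of the energy sensor AMPK, had 38 counts in the senescent libraries together and 0 in the primary ones. By total counts PRKAA2 was 13.3-fold higher there with the primary group set to 3 counts in all. That figure leaves out TMM scaling and the counting error of the 38. It was lower again in immortalized libraries (-2.65 ± 0.46, adjusted p = 0.0056), with 5 counts in all. PPP3CA, the catalytic subunit of calcineurin, fell to 57.5, 53.3 and 51.2 CPM in immortalized libraries, against 128, 127 and 115 CPM in senescent ones (-1.03 ± 0.27, adjusted p = 0.019). NCOA3, a coactivator of nuclear receptors, was also lower there (-0.997 ± 0.33, adjusted p = 0.0477). In that comparison 5 regulators rose and 5 fell, 35.7% of the list against 32.4% of all genes. Without primary library 1 it was 8 and 14, where 7793 of all genes passed, against 4249 with all libraries. In immortalized against primary libraries 11 rose and 4 fell, 53.6% of the list against 50.4% of all genes.

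Other transcription factors that PGC-1 can bind rose and fell. Of 21 listed, 20 are in the table and 17 were tested. In senescent against primary libraries 4 rose and 6 fell (median -0.11), a split that total-count scaling turned to 8 and 2. The share called, 58.8% of the list, was near the 58% of all genes. FOXO1, through which PGC-1alpha acts on glucose synthesis in liver, had 26.6, 26.2 and 22.2 CPM in senescent libraries, against 2.72, 12.9 and 7.29 CPM in primary ones (1.29 ± 0.39, adjusted p = 0.0216), and it was lower again in immortalized libraries at 10.4, 8.08 and 7.19 CPM (-1.38 ± 0.39, adjusted p = 0.0269). GABPB2, a partner subunit of GABPA, moved likewise (0.95 ± 0.27, adjusted p = 0.0164, then -1.28 ± 0.27, adjusted p = 0.0076). THRA, a thyroid hormone receptor, stood at 53.4, 54.8 and 57.3 CPM in immortalized libraries, against 25.0, 22.3 and 23.7 CPM in senescent ones (1.38 ± 0.11, adjusted p = 5.5e-05). THRB, the other thyroid hormone receptor, had 2 counts over the senescent libraries and 83 over the primary ones. By total counts that is a 39.7-fold higher level in primary (95% counting interval 10.6 to 333).

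Genes downstream of these factors did not rise with the coactivators on balance. Of 25 targets of NRF1 and GABP, 0 rose and 14 fell in senescent against primary libraries, with a median log2 change of -0.65 against 0.01 for all genes. The share called, 56% of the list, was near the 58% of all genes. Under total-count scaling the split turned to 7 rising and 4 falling, and the list median was -0.15 where that of all genes was 0.47. COX5B, a subunit of cytochrome oxidase, had 134, 135 and 140 CPM in senescent libraries, against 357, 140 and 195 CPM in primary ones (-1.30 ± 0.37, adjusted p = 0.0158). NDUFS8, a subunit of complex I, had 87.4, 83.4 and 99.7 CPM, against 247, 83.6 and 119 CPM (-1.28 ± 0.42, adjusted p = 0.0286). In both genes primary library 1 was far above the other primary libraries, and primary library 2 lay at the senescent level. Without primary library 1 the list had 1 gene rising and 15 falling, with a smaller median of -0.43. In immortalized against senescent libraries 3 rose and 0 fell, NDUFV2 (0.67 ± 0.12, adjusted p = 0.0032), UQCRC1 and ATP5B. That is 12% of the list, against 32.4% of all genes. Without primary library 1 this became 5 and 6, where 7793 of all genes passed. In immortalized against primary libraries 0 rose and 10 fell, among them TIMM17A, a channel subunit of mitochondrial import (-1.19 ± 0.11, adjusted p = 4.7e-05). That is 40% of the list, against 50.4% of all genes. Without primary library 2, 18 fell, where 8282 of all genes passed.

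The machinery that copies and transcribes mitochondrial DNA, of which 16 of 20 listed genes were tested, had 1 gene rising and 6 falling in senescent against primary libraries, with a median of -0.03. The share called was 43.75% of the list, below the 58% of all genes. Total-count scaling turned the split to 7 and 1. LONP1, the protease that degrades TFAM, fell by 0.62 on the log2 scale there (adjusted p = 0.00026) and by 0.71 in immortalized against primary libraries (adjusted p = 0.0001). TFB1M, a ribosomal RNA methyltransferase regulated with TFAM, was lower in immortalized than in primary libraries (-0.65 ± 0.13, adjusted p = 0.0038), and POLRMT, the mitochondrial RNA polymerase, was higher (0.36 ± 0.11, adjusted p = 0.0242). In immortalized against senescent libraries 2 of the 16 rose and 1 fell, 18.75% of the list against 32.4% of all genes.

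Fatty acid oxidation targets of PPARs and estrogen-related receptors split in a way that depended on the scaling. Of 33 listed, 31 were tested. In senescent against primary libraries 5 rose and 15 fell (median -0.31), which total-count scaling turned to 12 and 6. In immortalized against primary libraries 7 rose and 12 fell (median -0.33), turned to 9 and 7. The shares called were 64.5% and 61.3% of the list, against 58% and 50.4% of all genes. CD36, a fatty acid transporter, rose, with 18.6, 20.0 and 19.8 CPM in senescent libraries, against 0.296, 0.388 and 0.598 CPM in primary ones (5.05 ± 0.22, adjusted p = 9.9e-07). ACADS, the short-chain acyl-CoA dehydrogenase, fell to 22.3, 23.3 and 25.8 CPM, against 75.3, 63.3 and 75.7 CPM (-2.08 ± 0.16, adjusted p = 2.2e-05), and ACAA2, a thiolase of the same pathway, fell by 1.495 on the log2 scale (adjusted p = 0.00014). In immortalized against senescent libraries 5 rose and 5 fell, 32.3% of the list against 32.4% of all genes. CD36 (-2.47 ± 0.18) and ANGPTL4, a PPAR target that inhibits lipoprotein lipase (-2.26 ± 0.14), fell there with adjusted p of 2.9e-05 and 1.2e-05, whereas FABP3, a fatty acid carrier of muscle and heart, rose to 146, 164 and 171 CPM, against 61.7, 59.6 and 59.0 CPM (1.58 ± 0.18, adjusted p = 0.00031).

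SIRT3, the mitochondrial sirtuin and a known target of PGC-1alpha, had its highest level in the senescent libraries. It stood at 2.12, 1.90 and 2.34 CPM in primary, 5.27, 5.58 and 5.56 CPM in senescent and 1.26, 1.20 and 0.860 CPM in immortalized libraries, with no overlap between stages. All 3 comparisons passed, with 0.89 ± 0.19 in senescent against primary (adjusted p = 0.0038), -2.14 ± 0.20 in immortalized against senescent (adjusted p = 0.00011) and -1.25 ± 0.21 in immortalized against primary libraries (adjusted p = 0.0012). Of the 6 sirtuins other than SIRT1, 1 rose and 2 fell in senescent against primary libraries (3 and 0 under total-count scaling). That is 50% of them, against 58% of all genes. Of 12 targets in glucose and ketone synthesis only 5 were expressed enough to be tested. PCK2, the mitochondrial form of the enzyme that makes phosphoenolpyruvate, fell to 68.5, 68.04 and 72.3 CPM in senescent libraries, against 388, 270.3 and 315 CPM in primary ones (-2.72 ± 0.21, adjusted p = 1.9e-05). PCK1, the cytosolic form induced by PGC-1alpha in liver, was at 0.103 CPM or below in all 9 Simmental-Like libraries, and G6PC was at 0 in all of them.

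**Figure D3:**
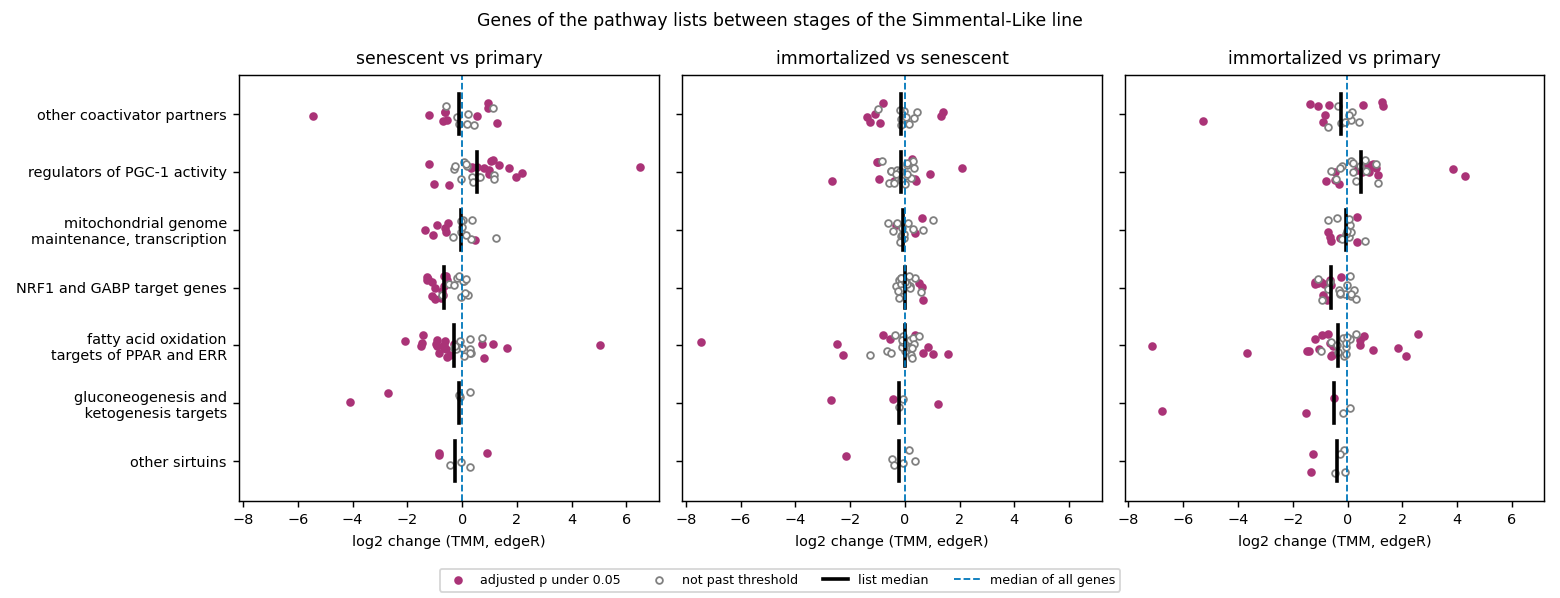
Log2 changes after TMM scaling (horizontal axis) of the tested genes in 7 pathway lists (rows) for the 3 comparisons of the Simmental-Like line. Filled points passed the adjusted p threshold of 0.05, black bars are list medians and the dashed line is the median of all genes. For PRKAA2, with 0 counts in primary libraries, the fitted value is drawn. The median of the NRF1 and GABP targets lies at -0.65 in the first panel and that of the regulators at 0.56.

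The Holstein-Like libraries were read singly. From the lowest to the highest of the 9, PPARGC1A differed 22.7-fold, against 12.7-fold over the Simmental-Like libraries, and PPARA 8.42-fold, against 2.63-fold, whereas TFAM differed 2.53-fold, against 6.94-fold. Intervals here are 95% exact Poisson intervals and cover counting error only. PPARGC1A was highest in immortalized library 2, rich in kidney genes, at 187 CPM (179 to 195), followed by senescent library 1, rich in heart genes, at 118 CPM (112 to 124). The liver-rich libraries held 20.4 CPM (senescent library 2), 33.5 CPM (senescent library 3) and 15.0 CPM (immortalized library 1). The muscle-rich libraries labelled primary held 13.7, 15.0 and 23.9 CPM from 20, 22 and 34 counts, and immortalized library 3, the one with fibroblast genes, held 8.23 CPM (6.79 to 9.88). In the order of all 18 libraries the top 3 were separated by their intervals. Below them, the Simmental-Like senescent libraries, Holstein-Like primary library 3 and Holstein-Like senescent library 2 formed a run in which neighbours were not separated, and all 9 Holstein-Like libraries lay above the Simmental-Like primary and immortalized ones.

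PPARGC1B did not follow PPARGC1A across these libraries. It stood at 14.4, 11.6 and 15.4 CPM in the muscle-rich Holstein-Like libraries, the highest of that line, at 4.26 CPM in the heart-rich and 5.46 CPM in the kidney-rich library, and at 1.55, 0.600 and 0.503 CPM in the liver-rich ones. The count ratio of PPARGC1A to PPARGC1B was 27.7 in the heart-rich, 34.3 in the kidney-rich and 13.2, 55.8 and 29.8 in the liver-rich libraries, but 0.952, 1.29 and 1.55 in the muscle-rich ones. The fibroblast-like immortalized library 3 had a ratio of 2.25, closer to the 0.248 to 3.80 of the Simmental-Like libraries. PPRC1 ran the other way: it stood at 7.02 to 40.5 CPM in the Holstein-Like libraries, and 8 of the 9 lay below the lowest Simmental-Like library at 40.2 CPM.

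The nuclear receptors also separated the libraries. ESRRA stood at 188 CPM in the kidney-rich and 167 CPM in the heart-rich library and at 118, 111 and 129.9 CPM in the muscle-rich ones, against 47.4 to 67.97 CPM in the liver-rich ones and 31.0 CPM in immortalized library 3. In the Simmental-Like libraries it reached at most 62.1 CPM, and 7 of the 9 Holstein-Like libraries lay above that. ESRRG had 112 counts (10.2 CPM) in the kidney-rich and 65 counts (4.61 CPM) in the heart-rich library, above the highest Simmental-Like library at 2.32 CPM, and 0, 9 and 6 counts in liver-rich senescent libraries 2 and 3 and immortalized library 1. It had 0, 0 and 1 counts in the muscle-rich ones, where shallow depth allows up to 2.06 CPM in the libraries at 0.

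PPARA was the member that set the lines apart without overlap, with 15.5 to 130.2 CPM in the 9 Holstein-Like libraries and 3.44 to 9.05 CPM in the 9 Simmental-Like ones. Its highest levels were 130.2 CPM in the kidney-rich library and 69.9, 111 and 95.4 CPM in the liver-rich ones. The muscle-rich libraries held 37.7, 35.4 and 43.5 CPM and the heart-rich one 21.7 CPM. The lowest Holstein-Like level, 15.5 CPM, was in immortalized library 3, which carries fibroblast genes.

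TFAM ranged from 9.13 to 23.1 CPM over the Holstein-Like libraries, with the kidney-rich one at the top, and within 2.72 to 18.9 CPM over the Simmental-Like ones. SIRT1 reached 52.2 CPM in immortalized library 3 and 28.4 CPM in the kidney-rich library, and stood at 10.2 to 19.8 CPM in the other 7, all below the lowest Simmental-Like library at 24.5 CPM. NRF1 was also highest in immortalized library 3, at 9.02 CPM, and lowest in the muscle-rich libraries, at 1.37, 1.36 and 0.702 CPM from 2, 2 and 1 counts. GABPA ranged from 6.85 to 28.5 CPM in the Holstein-Like and from 16.9 to 38.0 CPM in the Simmental-Like libraries. For SIRT1, NRF1 and GABPA the highest of all 18 libraries by total counts was Simmental-Like senescent, and for TFAM it was the kidney-rich one. The order between lines depended on the scaling. With TMM scaling over all 18 libraries, the highest NRF1 and GABPA levels were Holstein-Like (7.17 and 37.5 CPM, against 6.67 and 26.3 CPM at most in Simmental-Like libraries). The number of Holstein-Like libraries above every Simmental-Like one became 8 for TFAM, from 1 by total counts, and 8 for PPARGC1A, from 3. For PPARGC1B it became 3, from 0, with at most 26.2 CPM in Holstein-Like and 12.9 CPM in Simmental-Like libraries. PPARA kept all 9 above, at 12.3 to 143 CPM against 2.56 to 7.78 CPM, ESRRA had 8 above, PPRC1 had all 9 below and SIRT1 kept 7 below.

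**Figure D4:**
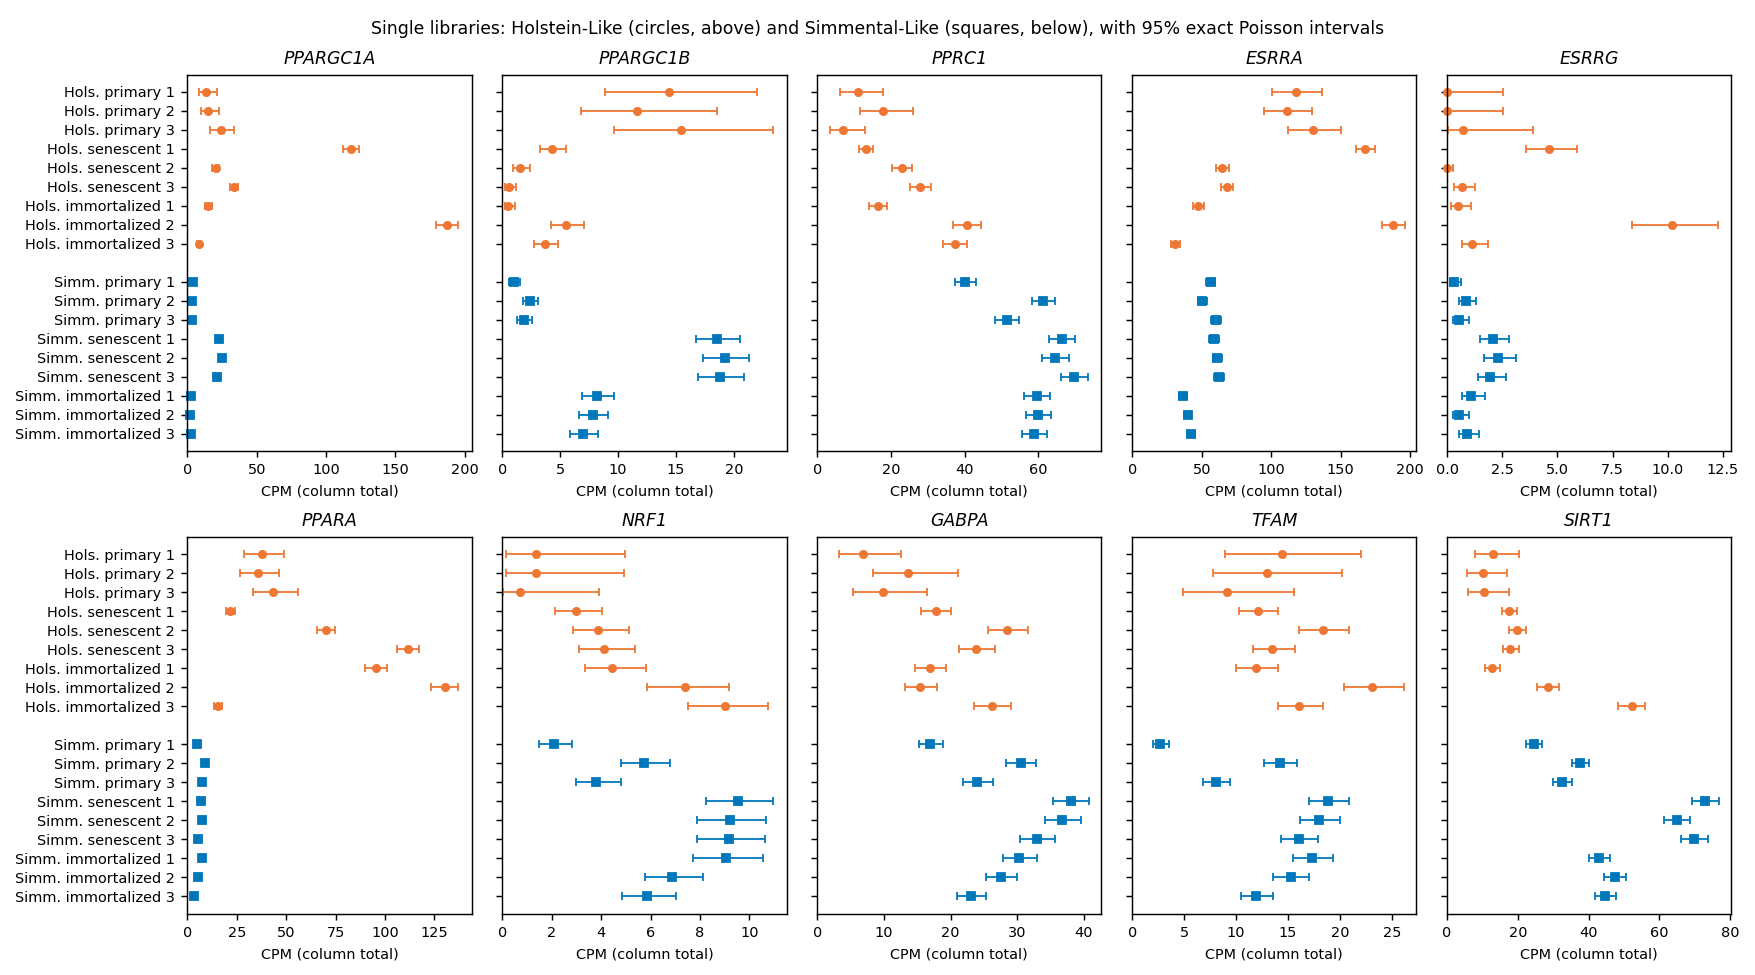
CPM by column total (horizontal axes, each starting at 0) of the 10 genes in each of the 18 libraries (rows), with 95% exact Poisson intervals. Circles are Holstein-Like and squares Simmental-Like libraries. PPARGC1A stands out at 187 and 118 CPM in Holstein-Like immortalized library 2 and senescent library 1, and PPARA is above 15 CPM in every Holstein-Like library and below 10 CPM in every Simmental-Like one.

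Textbook targets of these factors, picked after the levels of the 10 genes were known, also differed between these libraries. PCK1 stood at 755, 1154 and 2086 CPM in the liver-rich and at 2088 CPM in the kidney-rich library, and at 2.74 CPM or below in the muscle-rich ones. CPT1B, the muscle form of the enzyme that admits fatty acids to mitochondria, stood at 276 CPM in the heart-rich and 78.1, 72.9 and 68.1 CPM in the muscle-rich libraries, against 1.47 to 5.19 CPM in the Simmental-Like ones. UCP3, an uncoupling protein of skeletal muscle, stood at 644, 668 and 678 CPM in the muscle-rich libraries and at 7.60 CPM in the heart-rich one. CYCS, cytochrome c, stood at 835 CPM in the heart-rich library, against 19.8 to 175 CPM in the other Holstein-Like ones. The mitochondrially encoded share was 23.8% in the heart-rich and 14.4% in the kidney-rich library, the 2 with the most PPARGC1A, and 2.79% to 6.13% in the other 7. Among those 7 it did not follow PPARGC1A: it was 2.79% in senescent library 3 (33.5 CPM) and 6.13% in immortalized library 3 (8.23 CPM). Nor did it in the Simmental-Like line, with 8.66% in primary library 1 (3.75 CPM) and 2.08% to 2.27% in the senescent libraries (21.1 to 24.8 CPM). A link was not tested.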

How the data were processed

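RNA sequencing of 18 libraries was analysed from 1 deposited table of expected counts (estimated counts per Ensembl gene), which the authors made with salmon and merged to genes, per the file name. The genome build was UMD3.1, per the submitters' processing notes; no source used here states the salmon version, the annotation release or the strand setting. In each library 1.01% to 7.18% of values had decimals, so values were rounded to whole counts for testing. Totals per library were 1424479 to 23197201, so a gene at 0 counts could stand at up to 3 counts, 0.129 to 2.11 CPM. Intervals and floors cover counting error only. Sequences of the genes were not used here.

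The 9 Simmental-Like libraries were fitted together in edgeR 4.0.16 (R 4.3.3): TMM scaling, filterByExpr by stage, a robust quasi-likelihood fit, Benjamini-Hochberg adjustment over 13099 genes and a threshold of 0.05. Each SE was obtained by dividing the absolute log2 change by the root of its F statistic. Holstein-Like libraries entered no test. The 10 members, the 7 lists (147 symbols, 140 found) and the markers were chosen with earlier results of these data known. Named list genes are at most 4 per list and comparison, those past the threshold with the largest change, given here for only some lists; a few genes below the threshold or in the Holstein-Like libraries were named after their values were seen. Alternatives were RLE and total-count scaling, no filter, a minimum of 5 CPM in 3 libraries, DESeq2 1.42.0, only the 6 libraries compared, a replicate block, summing senescent libraries 1 and 2, and leaving out each library. On simulated data modelled on these libraries the step recovered 98, 97 and 92 of 100 genes changed 4-fold and 50, 46 and 60 of 100 changed 2-fold in the order senescent against primary, immortalized against senescent and immortalized against primary, with 9, 9 and 7 false calls among 13099 genes. The simulation raised only these genes and lowered none. In the data 32.4% to 58% of genes passed, in both directions, so these figures need not carry over to the fits above.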

Additional observations from a re-analysis of the deposited data

How the results depend on the processing

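The calls on PPARGC1A and PPARGC1B, and on ESRRA in immortalized against primary libraries, held their direction and side of the threshold under every alternative run; ESRRG could not be fitted under the minimum of 5 CPM, which removes it. In senescent against primary libraries 5838 to 9042 genes and 4 to 7 members passed with 1 library left out, against 7591 genes and 6 members with all. In immortalized against senescent libraries these ranges were 2888 to 7793 genes and 2 to 5 members, against 4249 and 5, and in immortalized against primary libraries 5191 to 8282 genes and 3 to 6 members, against 6607 and 3. Without primary library 1 the count for immortalized against senescent libraries was 7793 genes, and with only the 6 libraries compared it was 8600 genes; the first fit leaves out primary library 1 and the second all primary libraries. With senescent libraries 1 and 2 summed, 3 members passed there, with ESRRA and ESRRG lost. Total-count scaling gave 5 members in immortalized against primary libraries. It also changed the split of calls: 5955 genes higher and 1840 lower, against 3704 and 3887, in senescent against primary, 1505 and 2698, against 2146 and 2103, in immortalized against senescent, and 4580 and 2098, against 3264 and 3343, in immortalized against primary libraries.

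Signs turned for these log2 changes, with the range over fits without 1 library where one of those turned. In senescent against primary libraries PPRC1 turned to 0.39 and ESRRA to 0.12 under total-count scaling, and PPRC1 ran from -0.14 to 0.0113 (positive without primary library 2). In immortalized against senescent libraries PPRC1 turned to 0.0107 without a filter and 0.00204 with DESeq2 and ran from -0.033 to 0.0252 (positive without senescent library 3), PPARA ran from -0.39 to 0.15 (positive without senescent library 2, at 0.02, or immortalized library 3), and TFAM from -0.21 to 0.0428 (positive without immortalized library 3). In immortalized against primary libraries PPRC1 turned to 0.22 and GABPA to 0.18 under total-count scaling, and without primary library 2 both were positive, PPRC1 running from -0.15 to 0.0072 and GABPA from -0.25 to 0.0334. Except for ESRRA, none of these had passed the test, and the cause was not tested.

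The replicate numbers did not pair the libraries: correlations of deviations between same-numbered libraries ran from -0.50 to 0.18. With the replicate block 6743, 3466 and 5753 genes passed in the order of the comparisons above, and 4, 3 and 3 members, with ESRRA and NRF1 lost in the first and ESRRA and ESRRG in the second. Of the 180 member levels, 135 left their counting interval under TMM scaling over all 18 libraries, with factors from 0.590 to 1.49, so levels compared between lines depend on the scaling. Depth limits the Holstein-Like primary libraries most.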
